A study of Homo sapiens with 4 samples.

Results

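ITGAV encodes the integrin alpha v chain, and it was examined with 4 other alpha chain genes (ITGA2, ITGA3, ITGA5 and ITGA6) and the 5 genes of its beta partners (ITGB1, ITGB3, ITGB5, ITGB6 and ITGB8). The 10 genes were chosen by name, with earlier results of these data known, out of 19970 protein-coding genes on the chromosomes examined. The same holds for the other gene lists used below, so shares over coding genes are given for description only. For each gene, peaks of the histone mark H3K27ac were collected in 2 windows. A promoter peak overlapped the 1 kb on either side of the canonical start site, and the locus was the gene body with 100 kb on either side (hg38, GENCODE release 44).

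H3K27ac, which marks active promoters and enhancers, had been profiled by chromatin immunoprecipitation and sequencing in MDA-MB-231 and Hs578T, established human triple-negative breast cancer cell lines, with 2 libraries per line. Cells of every library were starved of serum in Opti-MEM for 8 h and given 10 ng/ml of TWEAK, the ligand of the receptor Fn14, for 48 h. The cytokine was then withdrawn. The series labels put the withdrawal at 72 h, and a longer one appears in the study, which leaves its length unresolved. Libraries made without TWEAK or before its withdrawal were not analysed here. The values therefore describe washed-out cells, and an effect of TWEAK on them was not tested.

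An integrin is a heterodimer of an alpha and a beta chain that spans the plasma membrane and ties the extracellular matrix to the actin cytoskeleton. The alpha v chain pairs with several beta chains, and these dimers bind matrix proteins such as vitronectin and fibronectin, while those with ITGB6 or ITGB8 are known for releasing active TGF-beta from its latent complex. The other alpha chains examined pair with ITGB1 and bind collagen (ITGA2), laminin (ITGA3 and ITGA6) or fibronectin (ITGA5).

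The list of MDA-MB-231 replicate 1 held 209 peaks and the other 3 lists held 43353 to 46330. It placed no peak at any of the 10 loci, so its value was 0 for each gene, and every result for MDA-MB-231 rested on replicate 2. The other lists are called the large lists, and values given as a run of 3 follow the order MDA-MB-231 replicate 2, Hs578T replicate 1, Hs578T replicate 2. Fold enrichment is the authors' ratio of a peak over its local background in its own library, so only its rank was compared between lists. With 2 libraries per line, an exact permutation test cannot give a two-sided p below 0.333, and no test between lines was made. In the large lists, promoter peaks were found at 6 of 6 mesenchymal marker genes, at 1 to 2 of 8 luminal marker genes (KRT8 in each list and EPCAM in 2) and at 0 of 9 leukocyte and platelet marker genes. Over all coding genes the share was 58.1%, 58.2% and 56.4%. The leukocyte and platelet markers include the integrin chains ITGAL, ITGAM, ITGB2 and ITGA2B, which are counted again below among the other integrin chains.

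The promoters of ITGAV and ITGB6 are shown because ITGAV carried a promoter peak in every large list, while ITGB6, its partner, carried none. Their sequences also differed, and a link between sequence and mark was not tested. Each run holds bases 250 to 51 before the start site, read 5′ to 3′ in the direction of transcription, with CG dinucleotides in capitals. The last 50 bases are left out because further transcripts of both genes begin within them. The ITGAV run is chr2:186589806-186590005 on the plus strand, and the ITGB6 run is chr2:160200323-160200522 on the minus strand (hg38).
ITGAV: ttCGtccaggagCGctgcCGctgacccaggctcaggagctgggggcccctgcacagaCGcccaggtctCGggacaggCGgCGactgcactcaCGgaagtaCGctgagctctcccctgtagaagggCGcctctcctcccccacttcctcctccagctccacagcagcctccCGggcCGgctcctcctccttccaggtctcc
ITGB6: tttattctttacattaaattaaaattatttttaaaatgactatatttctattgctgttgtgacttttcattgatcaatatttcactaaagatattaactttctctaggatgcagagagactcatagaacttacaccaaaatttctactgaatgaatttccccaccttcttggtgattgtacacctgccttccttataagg

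The printed ITGAV run held 12 CG dinucleotides and the ITGB6 run held 0. Over the full 250 bases, ITGAV had 18 CG dinucleotides and a GC content of 70.8%, and ITGB6 had 0 and 30%. The GC content of ITGB6 lay at percentile 0.548 of coding genes, whose median was 63.2%. The other 8 members had a GC content of 70% to 78.4%, with 12 CG dinucleotides in ITGA5 and 21 to 32 in each of the others. Of 575 coding promoters with no CG in these bases, 34 (5.91%) carried a promoter peak in every large list. The median number of CG dinucleotides was 18 over all coding genes, 22 over those marked in every large list and 6 over those marked in none. The GC box GGGCGG, or CCGCCC on the other strand, was found in 8 of 10 members, not in ITGAV or ITGB6, and in 59.0% of all coding promoters. The AP-1 motif TGACTCA, or TGAGTCA on the other strand, was found in 0 of 10 member promoters and in 3.07% of coding promoters.

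Stretches from the strongest distal regions of ITGAV and of its beta partners are shown where they held the AP-1 motif, which none of the 10 promoters did. It was found in 4 of these 6 regions, and in 51.9%, 51.2% and 50.3% of all distal peaks of the large lists. These shares are not a matched background, because the 6 regions were picked for strength and were wider. As merged over the large lists, which adds width, they spanned 1401 to 4893 bp. The median distal peak of each single list spanned 1190, 1202 and 1170 bp. Distal peaks whose score ranked in the upper 50% of their list held the motif in 67.9%, 67.7% and 66.7%. A distal region lay over 2.5 kb from every annotated transcript start site and was called in every large list, and the strongest was that with the highest mean percentile of fold enrichment over these lists. Each run is read on the plus strand of hg38 and is centred on the motif nearest to the middle of the region, in capitals. The runs are chr2:186544008-186544104 for ITGAV, chr10:32973073-32973169 for ITGB1, chr3:124986374-124986470 for ITGB5 and chr7:20230072-20230168 for ITGB8. The regions chosen in this way for ITGB3 and ITGB6 held no match.
ITGAV: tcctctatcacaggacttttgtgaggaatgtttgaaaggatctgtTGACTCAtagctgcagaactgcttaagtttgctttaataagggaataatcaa
ITGB1: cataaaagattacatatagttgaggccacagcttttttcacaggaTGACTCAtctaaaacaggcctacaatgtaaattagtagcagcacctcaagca
ITGB5: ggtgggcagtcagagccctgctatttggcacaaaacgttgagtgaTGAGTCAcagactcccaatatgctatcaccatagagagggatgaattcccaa
ITGB8: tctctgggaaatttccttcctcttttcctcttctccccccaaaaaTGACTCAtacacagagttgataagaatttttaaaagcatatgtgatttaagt

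These runs lay at different places relative to their genes. The ITGAV motif was 46 kb upstream of the start site in intergenic sequence, with ITGAV as the nearest coding start site. The ITGB1 motif lay in an intron of ITGB1. The ITGB5 motif was 99.1 kb upstream in an intron of HEG1, nearest to the start site of MUC13, and the ITGB8 motif was 100.8 kb upstream, nearest to MACC1. The ITGB5 and ITGB8 regions were assigned by distance alone, and the ITGB8 region reached into the window with its last 790 bp, so that its printed motif lay outside the window. From the midpoint of the region the motif was 591 bp away at ITGAV, 604 bp at ITGB1, 204 bp at ITGB5 and 77 bp at ITGB8.

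To ask whether the promoters of these genes carried the mark, promoter peaks were counted first. In each large list 9 of 10 members had a promoter peak, against 58.1%, 58.2% and 56.4% of coding genes, and against 55.6% for a peak in every large list. In MDA-MB-231 replicate 1 the count was 0 of 10, against 0.0601% of coding genes. All 5 alpha chain genes and 4 of 5 beta chain genes were marked in the large lists, and ITGB6 (chr2:160099667-160200313, minus strand), which encodes an epithelial partner of alpha v, was the unmarked gene in each.

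ITGAV (ENSG00000138448.13, chr2:186590010-186680901, plus strand) had a promoter peak of middling strength. Its fold enrichment was 8.93, 8.04 and 6.54, over widths of 2548, 2599 and 2818 bp. Among the promoter peaks of each list these values stood at percentiles 49.5, 51.0 and 48.2, so each list placed it close to its median promoter peak. The peak covered 2001, 1768 and 1931 of the 2001 bases around the start site and reached further into the gene (1546 to 1887 bp) than upstream of it (767 to 1001 bp).

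The other alpha chain genes spanned nearly the whole range of promoter peaks. ITGA3 (chr17:50055968-50090481, plus strand) had the strongest, with a fold enrichment of 32.7, 22.4 and 24.7. Its peak was also by far the broadest of the 10, at 22813, 45704 and 25638 bp, and stood at percentiles 96.7 to 99.6 of promoter peaks by fold enrichment. The ITGA3 gene is 34.5 kb long, and peaks covered 76.8%, 96.8% and 78.4% of its body.

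Of these genes ITGA2 (chr5:52989340-53094779, plus strand) was closest to ITGAV by promoter strength, with fold enrichments of 8.46, 9.36 and 7.35 at percentiles 46.5, 60.7 and 56.2. ITGA6 (chr2:172427354-172506459, plus strand) followed with 6.34, 6.80 and 5.10, at percentiles 28.8, 40.3 and 31.0. ITGA5 (chr12:54395261-54419266, minus strand) was the weakest alpha chain promoter, at 5.75, 4.25 and 4.30, which lay at percentiles 14.9 to 23.8. By percentile, ITGAV stood above ITGA5 and ITGA6 and below ITGA3 in each of the 3 lists, and its order against ITGA2 depended on the list.

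Among the beta partners, ITGB1 (chr10:32887273-33005792, minus strand), which pairs with the widest set of alpha chains, and ITGB5 (chr3:124761948-124901418, minus strand), a vitronectin receptor chain, had the stronger promoter peaks. ITGB1 had fold enrichments of 14.1, 10.1 and 8.83 (percentiles 65.4 to 78.7), and ITGB5 had 13.5, 11.1 and 7.86 (percentiles 60.7 to 75.9). Both ranked above ITGAV in each large list. The ITGB1 peak spanned 4836 bp in the MDA-MB-231 list against 9590 and 9411 bp in those of Hs578T. Part of this gap is a split call: over the stretch these peaks span together, all MDA-MB-231 peaks covered 6641 bp.

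ITGB3 (chr17:47253827-47313743, plus strand), the beta chain that also forms the platelet fibrinogen receptor, and ITGB8 (chr7:20330702-20415754, plus strand) ranked below ITGAV in each large list. ITGB3 had fold enrichments of 4.56, 4.42 and 3.81 over widths of 835, 657 and 236 bp. ITGB8 had 5.79, 4.18 and 3.65 over 2230, 2077 and 677 bp. The narrow peaks of Hs578T replicate 2 at both genes were at percentiles 11.5 to 13.5 of the promoter peaks of that list, and its ITGB8 peak ended 270 bp short of the start site. The ITGB3 peak began past the start site in MDA-MB-231 replicate 2 and in Hs578T replicate 2, by 104 and 174 bp. When a promoter peak had to lie in the strongest 50% of its list by score, ITGA5, ITGB3 and ITGB6 were without a peak in every large list, ITGB8 in both Hs578T lists and ITGA6 in Hs578T replicate 2, while ITGAV kept its peak in all 3.

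**Figure D1:**
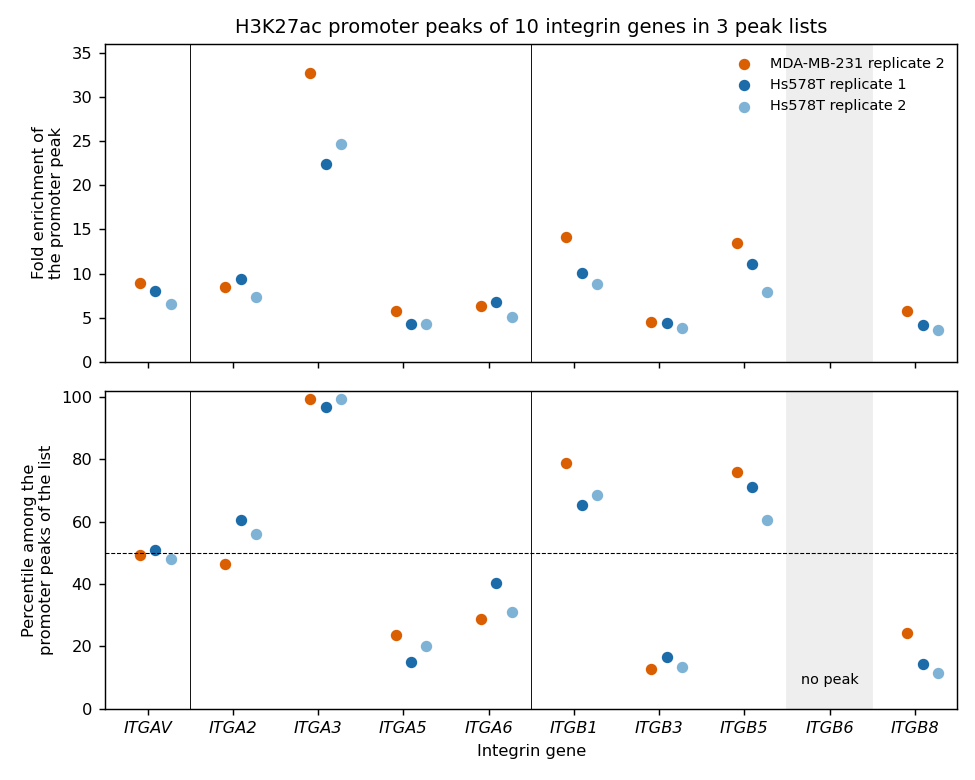
Fold enrichment of the promoter peak (top, ratio over the local background of each library) and its percentile among the promoter peaks of the same list (bottom) for the 10 genes, with 1 point per large list; the dashed line is the 50th percentile. ITGAV sits at percentiles 48.2 to 51.0, ITGA3 near the top, ITGB3 and ITGB8 below 25, and ITGB6 has no peak.

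To compare the loci beyond the promoter, the share of bases under peaks was measured over each gene body with 100 kb on either side. The ITGAV locus was marked below the coding median: peaks covered 2.73%, 2.93% and 2.63% of its 291 kb, which is 7940, 8515 and 7646 bp in 6, 7 and 7 peaks. The median of coding genes was 3.96% to 4.37% and their lower quartile 1.61% to 1.77%, and ITGAV lay at percentiles 36.4 to 37.7. It ranked 9 of 10 among the members in each large list, and in Hs578T its covered share was 2.78% ± 0.211 (SD, n = 2).

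The covered share of the other alpha chain loci was 2.70 to 9.84 times that of ITGAV within the same list. ITGA3 came first in each, with 24.7%, 28.8% and 24.9% of its locus covered, at percentiles 99.1 to 99.3 of coding genes. ITGA2 had 11.4%, 13.4% and 10.1%, and ITGA6 had 10.7%, 10.8% and 10.1%. ITGA5 was the lowest of these, with 7.76%, 7.90% and 7.56%. Its window held 6 other coding start sites, and its own start site was the nearest for 3 of its 9 regions.

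The beta partners fell on both sides of ITGAV. ITGB5 had 11.1%, 11.9% and 10.6% of its locus covered, ITGB3 had 9.73%, 11.7% and 10.1%, and ITGB1 had 8.76%, 10.3% and 9.26%. ITGB6, with no promoter peak, still had 8.13%, 8.58% and 9.12%, at percentiles 74.3 to 80.0 of coding genes. ITGB8 was the single locus below ITGAV, with 1.24%, 1.41% and 1.08%, which is 0.409 to 0.480 times the ITGAV share.

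Arranged by mean covered share over the large lists, the order was ITGA3, ITGA2, ITGB5, ITGA6, ITGB3, ITGB1, ITGB6, ITGA5, ITGAV and ITGB8. The ranges over the 3 lists did not overlap between ITGA3 and ITGA2, ITGB6 and ITGA5, ITGA5 and ITGAV, or ITGAV and ITGB8. From ITGA2 down to ITGB6 the range of each gene overlapped that of the next. Within the lists, ITGB5 stood above ITGA6, ITGB3 above ITGB1 and ITGB1 above ITGB6 in 3 of 3, ITGA2 above ITGB5 in 2 of 3 and ITGA6 above ITGB3 in 1 of 3. The windows also held start sites of other coding genes, from 0 at ITGB1 and ITGB8 to 6 at ITGA3 and ITGA5. With only the peaks whose nearest coding start site was that of the gene itself, ITGB1 moved from rank 6 to ranks 2 to 4, ITGB6 from 7 to 4 or 5, and ITGB3 to 7 in each large list. Under this limit ITGAV ranked 8 and ITGA5 9 in MDA-MB-231 replicate 2, and ITGA5 ranked 8 and ITGAV 9 in both Hs578T lists. In each large list 8 of 10 members lay above the coding median. The MDA-MB-231 value lay between the 2 Hs578T values for 6 members, ITGAV among them, and below both for ITGA3, ITGB1, ITGB3 and ITGB6.

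**Figure D2:**
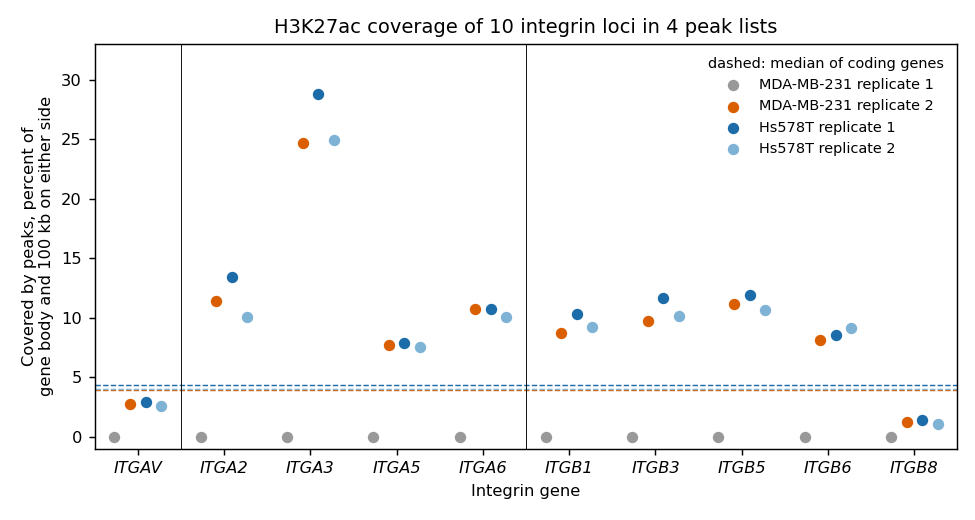
Percent of the gene body and 100 kb on either side covered by H3K27ac peaks, with 1 point per list and dashed lines at the median of 19970 coding genes in each large list. ITGAV and ITGB8 lie under the dashed lines, ITGA3 lies highest, and MDA-MB-231 replicate 1 is at 0 throughout.

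The covered bases were placed differently in the different loci. In ITGA2, ITGA6, ITGB1 and ITGB5, 79.0% to 84.8% of them lay inside the gene body. In ITGAV the share was 20.1%, 22.1% and 25.3%, and the only region of the ITGAV body was the promoter peak itself, so that peaks covered 1.75%, 2.07% and 2.13% of its 90.9 kb. ITGB6 had the smallest share inside the body apart from ITGB8 in Hs578T replicate 2, at 4.76%, 5.43% and 4.43%. In ITGB8 the promoter peak gave 23.5% and 20.4% in MDA-MB-231 replicate 2 and Hs578T replicate 1, and 0% in Hs578T replicate 2, where the peak lay wholly upstream.

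**Figure D3:**
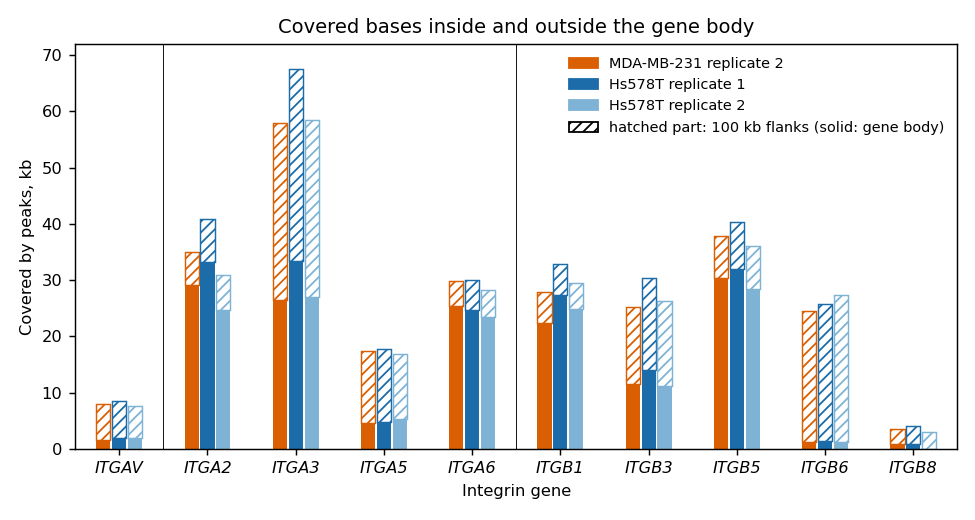
Covered bases in kb per gene and large list, split into the gene body (solid) and the 100 kb flanks (hatched). Most of the bar is solid for ITGA2, ITGA6, ITGB1 and ITGB5 and hatched for ITGAV, ITGA5, ITGB6 and ITGB8, while ITGA3 and ITGB3 are split more evenly.

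Peaks of the large lists were merged into 113 regions over the 10 loci, and 82 of these (72.6%) were called in every large list, against 74.8% of all 50576 merged regions. A further 6 were called in both Hs578T lists and not in MDA-MB-231 replicate 2 (5.51% of all regions were), and 2, both at ITGA5, in MDA-MB-231 replicate 2 alone (3.79% of all regions). The regions missing from at least 1 large list were weak, with a fold enrichment of at most 4.37. ITGAV had the lowest share in every list, 4 of 9, and ITGB6 the highest, 9 of 9.

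The 4 shared regions of ITGAV were the promoter, a strong intergenic region upstream and 2 weak ones. The upstream region, chr2:186542900-186546395, had its midpoint 45.4 kb before the start site. Its fold enrichment was 16.1, 10.3 and 9.55, which is 1.80, 1.29 and 1.46 times that of the promoter peak, and it was 3496, 2901 and 2553 bp wide within the lists. It stood at percentiles 91.0, 80.0 and 82.0 of all peaks of the lists. The weak pair lay 14.4 kb upstream (3.30, 3.14 and 3.49) and 182 kb downstream of the start site (2.97, 3.56 and 3.40), the latter nearer to ZSWIM2.

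Of the other regions of ITGAV, those at 19.6 and 17.0 kb upstream were each called in MDA-MB-231 replicate 2 and in 1 Hs578T list, at fold enrichments of 2.62 to 3.12. The other coding start site inside the ITGAV window, that of FAM171B, had a weak peak in the Hs578T lists (2.72 and 3.22) and none in MDA-MB-231 replicate 2. The start site of the non-coding gene ENSG00000227227 lay close by, and the same peak overlapped the 1 kb beside it without reaching the site itself.

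For each of the 9 members with a promoter peak, some other region of the locus had a larger fold enrichment, in each large list. Among all coding genes with a promoter peak, that peak was the strongest of its locus in 26.7%, 24.9% and 23.7%. At ITGA2, ITGAV, ITGB5 and ITGB8 the fold enrichment of the strongest region was 1.03 to 1.80 times that of the promoter peak. At ITGB3 it was 5.02, 5.56 and 5.82 times, and the ITGB3 promoter ranked 11, 13 and 13 among the 13, 13 and 14 regions called at its locus.

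The strong regions of the other alpha chain loci were called in every large list. At ITGA3 a region 27.4 kb upstream, chr17:50026412-50030936, had fold enrichments of 49.0, 51.0 and 40.8, at percentiles 99.98 to 99.99 of all peaks. At ITGA6 the strongest lay in an intron, 12.7 kb past the start site, chr2:172436534-172443979, with 18.0, 19.3 and 16.2. ITGA2 had intronic regions 29.2 kb (8.59, 9.68 and 8.15) and 43.9 kb (12.3, 7.80 and 8.61) past the start site. ITGA5 had no distal region called in every large list: its intronic region at 6.80 kb (7.02, 7.12 and 6.09) and its strongest at 59.5 kb (11.4, 13.0 and 11.4) both lay near other annotated start sites, the latter nearest to GPR84.

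At the beta partners the strong regions often lay near start sites other than the canonical one. ITGB1 had regions 24.96 kb (22.8, 25.8 and 21.8) and 49.2 kb (20.0, 20.6 and 29.3) upstream of its canonical start site, near further annotated start sites of the gene and of the divergent transcript ITGB1-DT, and its strongest distal region, chr10:32971427-32973608, was weak at 3.76, 5.88 and 4.23. ITGB3 had its strongest region 25.7 kb past the start site (22.9, 24.6 and 22.2), and a distal one 28.6 kb upstream, chr17:47223262-47227257, at 15.2, 18.5 and 17.0, whose nearest coding start site was that of MYL4. A distal region 13.9 kb upstream, nearest to ITGB3 itself, had 12.3, 19.3 and 18.0 and was the strongest distal one in both Hs578T lists. ITGB5 had an intronic region at 51.0 kb (13.3, 13.6 and 12.1) and the HEG1 region, chr3:124984180-124989072 (17.5, 10.4 and 10.5).

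ITGB6 had 9 regions, and the strongest of them exceeded, in each large list, the promoter peak of every member other than ITGA3. This region, chr2:160268941-160273509, lay 71.0 kb upstream at the non-coding gene LINC02478, with 28.8, 32.0 and 21.3. A region 7.26 kb upstream was 7591 bp wide with 13.5, 14.8 and 11.3, and the strongest distal region lay in an ITGB6 intron, chr2:160180616-160182016, with 15.4, 16.8 and 13.9. The nearest coding start site was that of ITGB6 for 9 of its 9 regions, of which 2, at 79.5 and 93.7 kb upstream, lay in introns of RBMS1. ITGB8 had 3 regions in every large list, and the strongest of them, chr7:20228596-20231491, reached 6.08, 5.26 and 5.60.

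**Figure D4:**
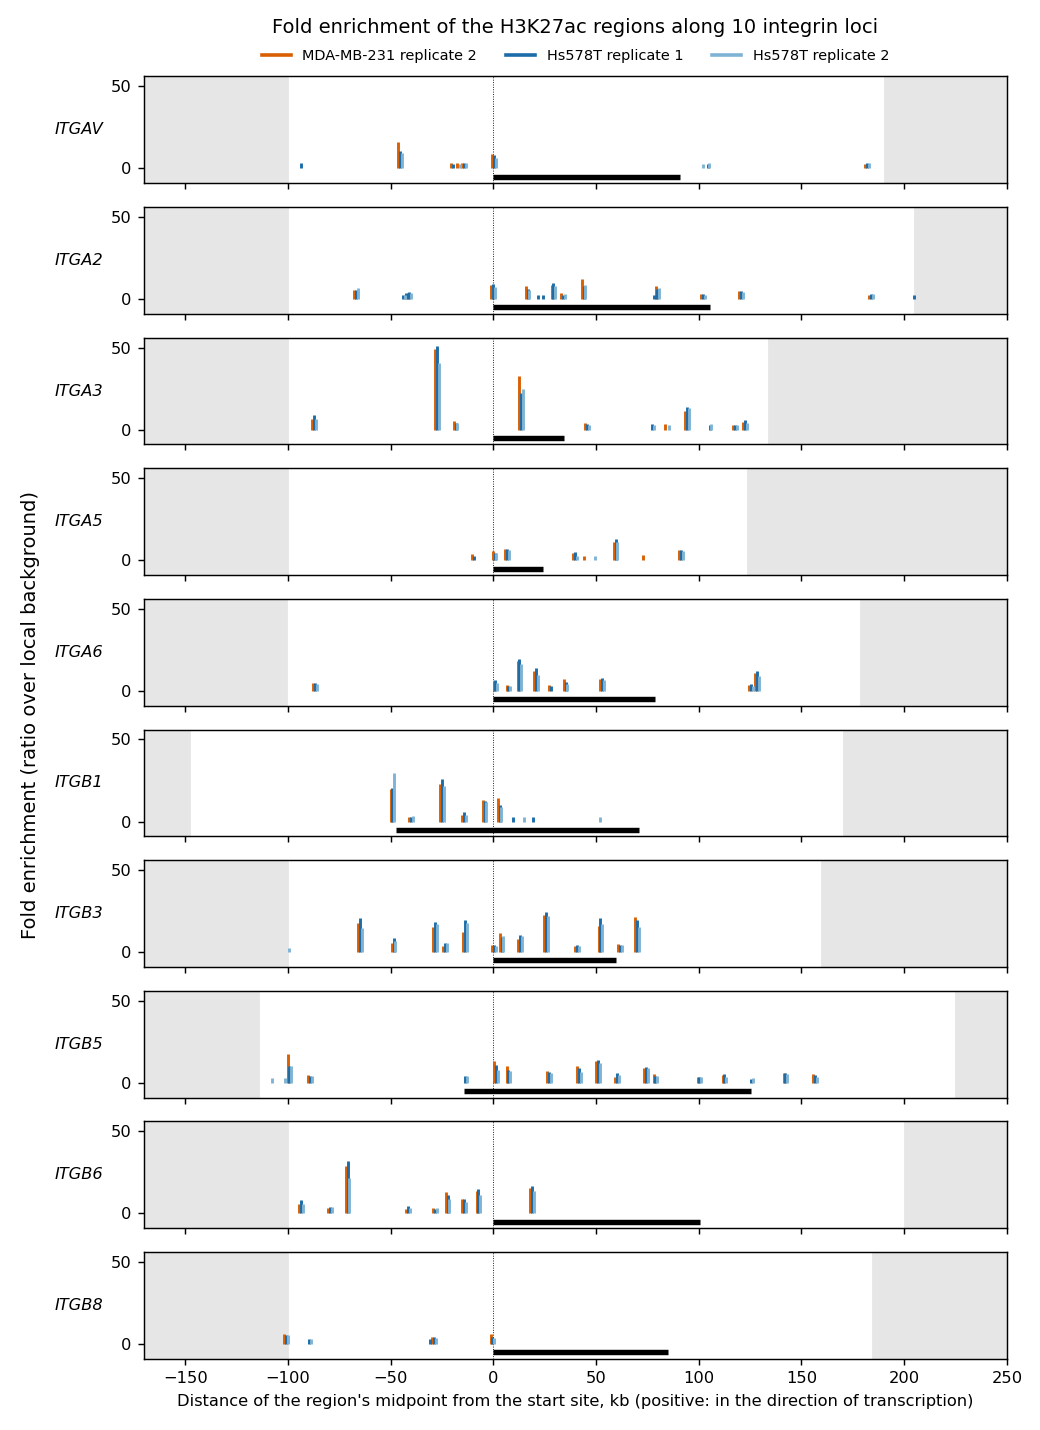
Fold enrichment of each region in each large list against the distance of its midpoint from the canonical start site, in kb along the direction of transcription; the black bar is the gene body, the grey area is outside the window, and lines of the 3 lists are set slightly apart. ITGAV shows its promoter and the region 45.4 kb upstream above a fold enrichment of 5, ITGA3 the highest line at 51.0, and ITGB6 no line at the start site.

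The AP-1 motif was then counted in the distal peaks of the 10 loci. It was present in 23 of 49 (46.9%, 95% Wilson interval 33.7 to 60.6), 23 of 53 (43.4%, 31.0 to 56.7) and 23 of 52 (44.2%, 31.6 to 57.7) of them. All distal peaks held it in 51.9%, 51.2% and 50.3%, which lay inside these intervals. The distal peaks of the members were wider, with medians of 1600, 1401 and 1214.5 bp against 1190, 1202 and 1170 bp, and the part of width in the whole-peak shares was not tested. With the search narrowed to the central 500 bp of each peak, the members had 8 of 49 (16.3%, 8.51 to 29.0), 9 of 53 (17.0%, 9.20 to 29.2) and 8 of 52 (15.4%, 8.01 to 27.5), and all distal peaks had 32.8%, 31.5% and 31.2%, above these intervals. At ITGAV, whole distal peaks matched in 2, 2 and 1 of 5 cases, and the counts at single loci were too small to rank. The intervals cover counting error only, neighbouring peaks are not independent, and the lists share most of their regions. A fixed 500 bp is a smaller part of a wider peak, and the part of width in the central shares was not tested either. In the strongest 50% of peaks by score, the members had 66.7% in MDA-MB-231 replicate 2 and a mean of 66.6% in Hs578T. All distal peaks of that kind had 67.9%, 67.7% and 66.7%.

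The remaining integrin chains were counted as a background for the 10 genes, whose choice was made with earlier results of these data in view. Promoter peaks were found at 5, 5 and 4 of 16, beside 58.1%, 58.2% and 56.4% of coding genes. ITGA1, a collagen receptor chain, ITGA10, ITGAE and ITGB4, the partner of ITGA6 in hemidesmosomes, were marked in every large list. Among the leukocyte and platelet chains, ITGAL, ITGAM, ITGAX, ITGB2 and ITGA2B were marked in none. ITGAE is also a leukocyte chain, and its partner ITGB7 was marked weakly in MDA-MB-231 replicate 2 (2.85) and Hs578T replicate 1 (2.73). ITGB2 had 22.3%, 25.3% and 22.9% of its locus covered all the same.

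By covered share over the 3 large lists, the chains outside the 10 genes most like ITGAV were ITGA2B (Euclidean distance of 0.650 percentage points), ITGA11 (0.890) and ITGAX (1.01). ITGA2B had 2.35%, 2.40% and 2.62% of its locus covered, and it had no promoter peak, nor had ITGA11 or ITGAX. Of these 4 genes with similar coverage, ITGAV alone had a marked promoter.

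The genes on either side of the integrin dimer were also counted, beside 58.1%, 58.2% and 56.4% of coding genes. Of 14 adaptors and kinases that link integrins to actin, 13 had a promoter peak in each large list, talin (TLN1), vinculin (VCL), paxillin (PXN) and the integrin-linked kinase (ILK) among them, and TNS1 had none. Of 19 ligand genes, 16 were marked in each large list. They included fibronectin (FN1), TGFB1, TGFB2 and TGFB3 and thrombospondin (THBS1), while vitronectin (VTN), osteopontin (SPP1) and nidogen (NID1) were not. The median covered share was 6.52%, 7.29% and 7.16% for the adaptors and 6.63%, 7.29% and 7.70% for the ligands, beside 9.25%, 10.5% and 9.67% for the 10 integrin genes and 3.96% to 4.37% for coding genes.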

How the data were processed

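H3K27ac was profiled in 4 libraries, grouped by the line and replicate number in the sample titles. The authors trimmed reads with Trimmomatic, mapped them to hg38 with Bowtie2, called peaks per library with MACS2 against input and removed blacklisted regions; versions and settings are not given in the sources used here, and broad mode is inferred from the 9 columns. The deposited lists hold, per peak, a score, a fold enrichment (ratio), a deposited −log10 p-value and a deposited −log10 q-value. Read numbers were not used here, so depth is unknown.

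Peaks on chromosomes 1 to 22 and X were intersected with GENCODE release 44 in Python 3.11.15 (pandas 2.3.3, pysam 0.24.0), with at least 1 bp of overlap, and the interval code was tested on simulated data. Regions are peaks of the large lists merged where they overlapped. The 10 genes, the gene lists and the rule for named regions (the strongest distal region per gene called in every large list, and the 3 chains nearest to ITGAV in covered share) were chosen with earlier results of these data known. Among the members, 8 start sites matched an entry of the RefSeq promoter table at 0 bp, and ITGA3 and ITGB3 had no entry. Replicates are separate libraries per the labels. Alternatives covered the promoter window, start sites, flanks, peak strength, merging, motif window and each replicate left out.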

Additional observations from a re-analysis of the deposited data

How the results depend on the processing

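Of 75 recomputed values, 47 stayed within the spread between the Hs578T lists (or, for counts, within 1.5 times). Some of the 47 could not have moved. Without MDA-MB-231 replicate 1 the value is the main one by definition, and without 1 Hs578T list no value other than a count can leave the spread. ITGA3 came first and ITGB8 last in covered share in each large list under each alternative tried for the rank. Values for MDA-MB-231 are those of replicate 2, and values for Hs578T are means of 2 lists. Flanks of 50 kb and 10 kb gave a median covered share of the 10 loci of 13.2% and 17.6% in MDA-MB-231 and 13.9% and 18.9% in Hs578T, and an ITGAV share of 3.91% and 2.30% against 3.72% and 2.51%. The strongest 50% of peaks gave a median of 7.78% and 8.44%, an ITGAV share of 2.08% and 1.87%, an AP-1 share of 66.7% and 66.6% (66.7% to 67.9% over all distal peaks), and 5.5 marked members on average in Hs578T. With q-values of at most 0.01 the ITGAV share was 2.46% and 2.44%. With peaks nearest to the ITGAV start site alone, ITGAV ranked 8 in MDA-MB-231 and its share in Hs578T was 2.19%. The central 500 bp gave AP-1 shares of 16.3% and 16.2%, and flanks of 50 kb gave 47.6% in MDA-MB-231 and 46.4% in Hs578T. The ITGAV promoter percentile was 46.6 by score in MDA-MB-231, and 51.5 and 51.7 with a 2.5 kb window. The cause of these shifts was not tested beyond what each setting changes by construction.

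Leaving out MDA-MB-231 replicate 1 or replicate 2 gave 9 or 0 marked members, a median covered share of 9.25% or 0%, and an ITGAV share of 2.73% or 0%. Without replicate 2, no rank, percentile or AP-1 share could be computed for this line. Leaving out either Hs578T list left 9 marked members. For the other results it could not move the mean of 2 lists by more than their SD, so this setting says nothing about their stability. No paired analysis was possible because no test was made and MDA-MB-231 replicate 1 holds no peak at these loci. Sequencing depth is unknown, and its part in which weak peaks were called was not tested.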
